A study of Homo sapiens with 28 samples.

Results

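Residual HCT116 xenografts were examined for genes whose response to Palbociclib and Telaglenestat given together departed from what the responses to each drug alone add up to. The 16 tumor libraries of the series, out of 28 libraries in all, form a 2 by 2 design of 3 Control, 5 Palbociclib, 4 Telaglenestat and 4 Palbociclib+Telaglenestat tumors, and every gene counted enters. HCT116 is a human colorectal carcinoma line. In this study a Luciferase-GFP derivative of it was injected under the skin of male NOD SCID mice 5 weeks of age, which lack functional lymphocytes but keep stromal and myeloid cells of their own. From 8 days after injection, the mice received daily oral doses for 23 days of vehicle (Control), Palbociclib at 100 mg/kg, Telaglenestat at 150 mg/kg, or both drugs at those doses. Telaglenestat is the spelling of the labels for the drug also written Telaglenastat. The other 12 libraries are monolayer cultures explanted from residual tumors, 3 for each treatment of the mice. Per the study's methods the cultures were grown without the drugs, and they are used only where stated.

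Palbociclib inhibits the cyclin D-dependent kinases CDK4 and CDK6, which phosphorylate the retinoblastoma protein and so release E2F factors that switch on genes of DNA replication and mitosis. Telaglenestat inhibits glutaminase, the mitochondrial enzyme that turns glutamine into glutamate, a source of carbon for the tricarboxylic acid (TCA) cycle and of nitrogen for biosynthesis. By the convention used here, the fold changes of separate drug effects on a transcript multiply, and their log2 changes add. On a linear scale the changes would be summed instead, so a departure depends on the scale chosen.

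The departure from additivity of a gene was therefore taken as the log2 change under both drugs against Control, minus the change under Palbociclib, minus the change under Telaglenestat. A value of 0 means that the fold changes multiplied, a positive value that the level with both drugs lay above that product, and a negative value that it lay below. The test was the quasi-likelihood F test of edgeR, adjusted by the method of Benjamini and Hochberg across every gene that passed the filter. A gene is called here at an adjusted p under 0.05, and levels are CPM, that is, counts scaled to a common library size. The labels do not say that tumors of a group came from separate mice, so the p-values measure the spread between these samples.

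Total counts ran from 6273834 to 10617936 per tumor. The mean correlation of a tumor with the others of its group lay between 0.962 and 0.973. Libraries differed in how counts followed GC content: the slope of log2 level per SD of GC content averaged 0.253 in Control, 0.284 in Palbociclib, -0.337 in Telaglenestat and -0.208 in combination tumors. The departure itself had a slope of 0.108 per SD of GC content, and 0.0132 after each library was corrected for GC content and transcript length, so the departures of called genes are given in the corrected fit where the call differs. CPM and the counts of changed list members are uncorrected. Where a change between groups printed for a gene crossed the threshold with the correction, both values are given. Changes that are not printed crossed it in some genes too. The tumor Palbociclib 2 stood apart, with 13.6% of counts on mitochondrially encoded genes against 8.28 to 9.58% in the other 4 Palbociclib tumors.

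Few genes had a called departure from additivity. Of 14848 genes tested, 10 were called (0.0673%), 7 with a positive departure (0.0471%) and 3 with a negative one (0.0202%). The positive genes were SPARC, COL1A2, COL1A1, MMP7, KLK10, MSMO1 and ISY1-RAB43, and the negative genes were PALLD, HTR7 and NR2F1. By contrast, Palbociclib against Control called 914 genes (6.16%), Telaglenestat against Control 7590 (51.1%) and both drugs against Control 6612 (44.5%). These comparisons share the Control tumors. The median departure over all genes was 0.01, and 1424 genes (9.59%) had an unadjusted p under 0.05, 701 positive (4.72%) and 723 negative (4.87%). The number of calls rested on the test and the filter: DESeq2 called 93 genes (30 positive and 63 negative), and edgeR without a filter on low counts called 235.

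The design resolved departures of moderate size. The median standard error was 0.222, against 0.155 for Palbociclib and 0.166 for Telaglenestat against Control, and the smallest departure called was 0.62 in size. For 9875 genes (66.5%) the whole 95% interval of the departure lay within 1 log2 unit of 0, and for 6183 (41.6%) it lay within a 1.5-fold change either way. For the rest, the interval reached beyond these sizes. All 4 combination tumors lay above all 12 other tumors in 263 genes (1.77%) and below them in 111 (0.748%). Of the 10 called genes only MMP7 was among them, since a departure does not require an extreme level.

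**Figure D1:**
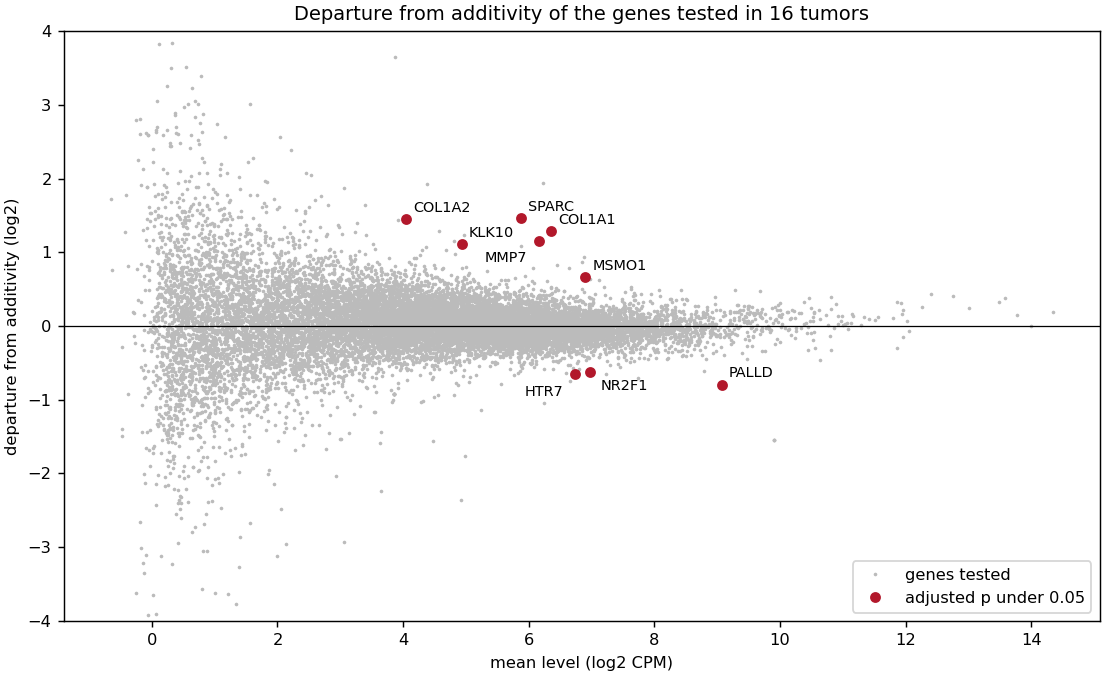
Departure from additivity (log2, vertical axis) against mean level over the 16 tumors (log2 CPM, horizontal axis), with 1 point for each gene tested. Red points mark 9 of the 10 called genes; 53 genes with a departure beyond 4 in size, ISY1-RAB43 among them, are not drawn.

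The largest called departures among genes free of overlap with another gene on their strand were in matrix genes, which Telaglenestat alone lowered and the addition of Palbociclib raised again. SPARC encodes a secreted glycoprotein that binds collagen, and COL1A1 and COL1A2 encode the chains of type I collagen, the main fibrillar collagen of connective tissue.

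SPARC (ENSG00000113140.10, chr5:151661096-151687165 of GRCh38, minus strand) had 78.7, 84.1 and 73.5 CPM in Control tumors, 83.6, 80.3, 60.2, 81.8 and 80.9 with Palbociclib, 22.8, 21.3, 21.6 and 17.9 with Telaglenestat, and 61.3, 73.8, 40.9 and 50 with both. Every Telaglenestat tumor lay below every other tumor, and the combination tumors lay between them and Control, overlapping Control and Palbociclib at their upper end. Telaglenestat alone lowered SPARC by -1.92 (adjusted p = 1.73e-08), and Palbociclib alone gave -0.03 (adjusted p = 0.956), so that 20.5 CPM would follow from additivity. The combination averaged 56.5 ± 14.2 CPM (SD, n = 4), a departure of 1.46 ± 0.20 (SE, adjusted p = 0.00412), or 2.75-fold above the product.

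COL1A2 (ENSG00000164692.17, chr7:94394561-94431232, plus strand) had 23.2, 21.2 and 17 CPM in Control tumors, 21, 17.2, 16.9, 17 and 20.7 with Palbociclib, 7.75, 5.85, 9.41 and 7.29 with Telaglenestat, and 20.5, 21.5, 16 and 16.7 with both. The Telaglenestat tumors stood below all others, while the combination tumors overlapped Control. Its departure was 1.45 ± 0.22 (adjusted p = 0.0097). The change under both drugs against Control was -0.14 (adjusted p = 0.513), but -0.50 in the corrected fit (adjusted p = 0.0164). Against Palbociclib it was 0.01 (adjusted p = 0.964), but -0.40 corrected (adjusted p = 0.0348).

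COL1A1 (ENSG00000108821.13, chr17:50183289-50201632, minus strand) had 108, 136 and 114 CPM in Control tumors, 132, 68.2, 123, 120 and 146 with Palbociclib, 28.1, 26.8, 24.9 and 22.8 with Telaglenestat, and 69.6, 67.8, 54.1 and 55.9 with both. The combination tumors lay above all Telaglenestat tumors and below all Control tumors, and only the tumor Palbociclib 2 came down to their range. The change under both drugs against Control was -0.95 (adjusted p = 0.000127), but -0.07 in the corrected fit (adjusted p = 0.741). Against Palbociclib it was -0.93 (adjusted p = 5.23e-05), but 0.01 corrected (adjusted p = 0.953). Its departure was 1.29 ± 0.24 (adjusted p = 0.0479), and it missed the threshold in 13 of 16 fits that left out 1 tumor (adjusted p up to 0.246, without Control 2).

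The list of 13 fibroblast markers, which includes COL1A1 and COL1A2, leaned the same way. Of its 8 members tested, all had a positive departure (51.9% of all genes did), and 2 were called (COL1A1 and COL1A2). An unadjusted p under 0.05 was found in 5 (62.5%, against 4.72% of all genes in that direction). The median was 1.22 against 0.01 over all genes. COL3A1 (type III collagen) had a departure of 1.24 (adjusted p = 0.118), and POSTN, which encodes the matrix protein periostin, 1.48 (adjusted p = 0.491) on 5 to 44 counts per tumor. DESeq2 called COL1A1 and COL3A1 of the list and gave no adjusted p for COL1A2, and edgeR without the filter on low counts called COL1A1, COL1A2 and COL3A1. The summed level of the list was 196 to 234 CPM in Control, 127 to 229 in Palbociclib, 60.2 to 77.2 in Telaglenestat and 117 to 158 in combination tumors, and 6.24 to 25.2 in the cultures. Other defining markers were at or near 0 in the same tumors: DCN reached at most 3 counts, THY1 1 count and PDGFRA 5 counts in any tumor, and LUM had none. Of 10 endothelial markers none passed the filter, and of 12 leukocyte markers 3 did, with summed levels of 17.6 to 21.8, 22.8 to 33.7, 3.93 to 11.2 and 9.2 to 15.8 CPM in the same order of groups. The reads were aligned to a human genome, and the sources used here do not say whether mouse reads were removed, so human and mouse transcripts of these genes cannot be told apart, nor can fewer cells of a type and less RNA per cell in bulk tissue.

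MMP7 and KLK10 were raised by Palbociclib, lowered by Telaglenestat, and stood with both drugs far above the product of these effects. MMP7 encodes matrilysin, a matrix metalloproteinase made by epithelial cells, and KLK10 a secreted kallikrein-related peptidase.

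MMP7 (ENSG00000137673.8, chr11:102520508-102530753, minus strand) had 22.6, 35.7 and 40.4 CPM in Control tumors, 82.6, 102, 95, 88 and 72.5 with Palbociclib, 23.9, 18.5, 26.3 and 18.2 with Telaglenestat, and 145, 121, 138 and 116 with both. In CPM every combination tumor exceeded every other tumor, and the Telaglenestat tumors overlapped the lowest Control tumor. The combination lay 0.56 above Palbociclib alone (adjusted p = 0.00147), but 0.11 in the corrected fit (adjusted p = 0.521). Palbociclib raised it by 1.43 (adjusted p = 1e-05) and Telaglenestat lowered it by -0.60 (adjusted p = 0.00702), which gives 58.4 CPM, whereas the combination averaged 130 ± 14 CPM. Its departure was 1.16 ± 0.22 (adjusted p = 0.0483). It missed the threshold in 12 of 16 fits without 1 tumor (adjusted p up to 0.27, without Control 2).

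KLK10 (ENSG00000129451.11, chr19:51012739-51020175, minus strand) had 24.4, 23.9 and 20.1 CPM in Control tumors, 43.7, 43.9, 37.8, 50.7 and 50.9 with Palbociclib, 8.97, 9.2, 9.87 and 7.29 with Telaglenestat, and 42.2, 36.4, 34.7 and 38.2 with both. The combination tumors lay above all Control and Telaglenestat tumors and reached into the Palbociclib range. Against Palbociclib they gave -0.26 (adjusted p = 0.048), but -0.01 corrected (adjusted p = 0.961). Telaglenestat alone lowered KLK10 by -1.37 (adjusted p = 1.31e-07), and its departure was 1.11 ± 0.17 (adjusted p = 0.0097).

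The kallikreins, lipocalin and differentiation genes, a list that includes KLK10, mostly lay above additivity. The list was chosen with earlier results of these data known. Of 27 genes listed, 19 were tested, and 16 had a positive departure (84.2%, against 51.9% of all genes). At an unadjusted p under 0.05, 8 were positive (42.1%, against 4.72%) and 1 negative (5.26%, against 4.87%). KLK10 was the member called, and the median was 0.65 (0.58 corrected). Only 12 members had at least 10 counts in every tumor, and the median was lower among those. KLK6 had a departure of 0.94 ± 0.23 (adjusted p = 0.129) and KLK7 of 0.79 ± 0.22 (adjusted p = 0.208), neither past the threshold. KLK6 lay at 32.6 to 44 CPM in Telaglenestat and 102 to 145 in combination tumors, against 99.1 to 129 in Control, so the combination tumors overlapped Control. DESeq2 called KLK6, KLK7 and KLK10, and edgeR without the filter these and VIL1, which encodes the microvillus protein villin. VIL1 had no count in any Telaglenestat tumor, so no fold is given for it. LCN2, which encodes the iron-carrier-binding protein lipocalin 2, is a member whose values lay close to additivity: it rose by 2.58 with Palbociclib (adjusted p = 6.78e-05) and by 2.90 with both drugs (adjusted p = 1.96e-06). Its departure was -0.06 ± 0.46 (adjusted p = 0.984), an interval from -1.02 to 0.89.

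Secreted factors associated with senescence, a stable arrest that CDK4/6 inhibitors can bring about, were also mostly above additivity among the members tested. Of 27 listed, 14 were tested, and IL1A, IL1B and IL6 were among those that did not pass the filter. The departure was positive in 13 of 14 (51.9% of all genes), 4 at an unadjusted p under 0.05 (4.72%). None was called, and the median was 0.45. IGFBP3, which binds insulin-like growth factors, had a departure of 0.61 ± 0.23 (adjusted p = 0.402). It was among 4 members that edgeR called without the filter on low counts.

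**Figure D2:**
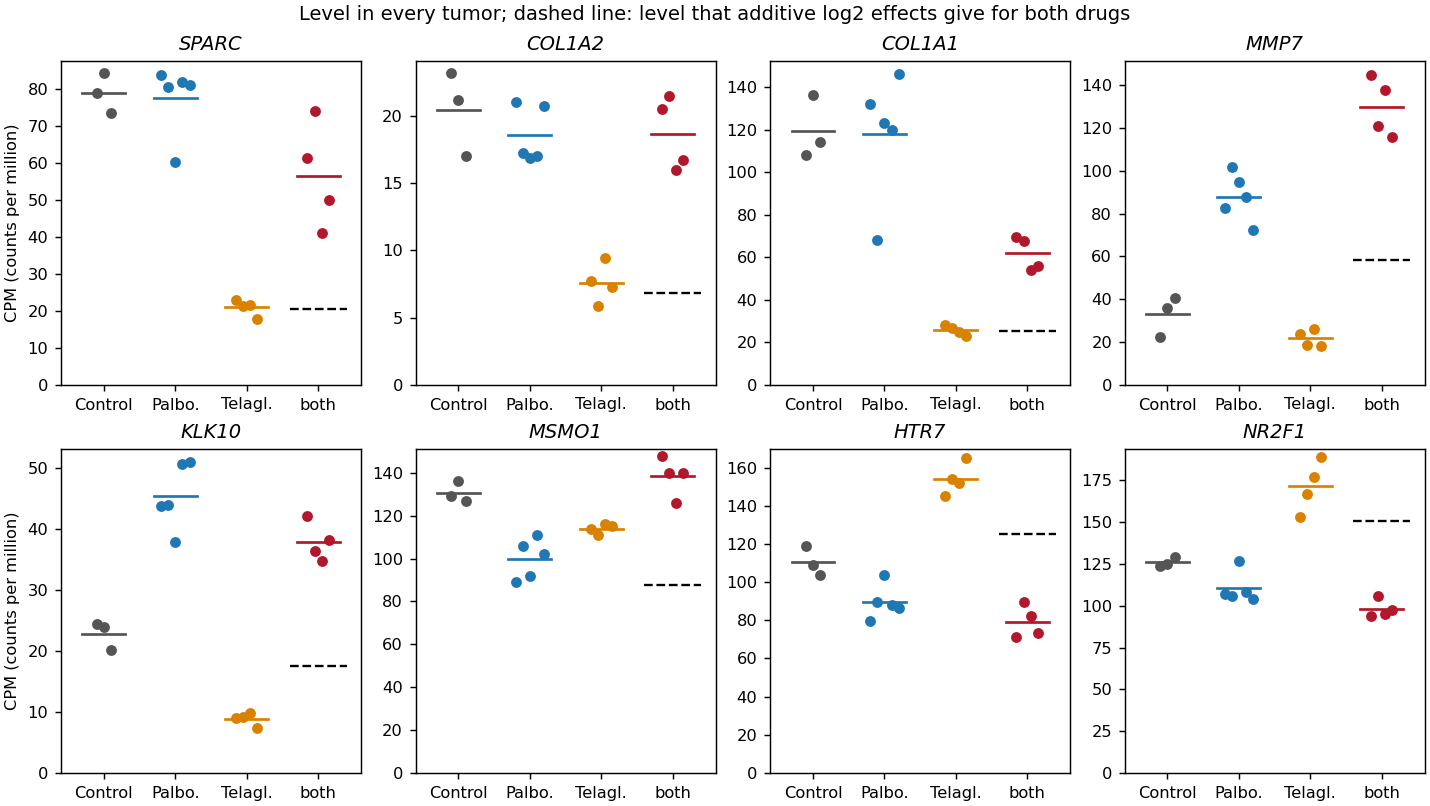
Level in CPM (vertical axis, from 0) of 8 called genes in each of the 16 tumors, by treatment; each point is a tumor, each coloured bar a group mean, and the dashed line is the level that additive log2 effects give for both drugs. The combination mean lies above the dashed line in SPARC, COL1A2, COL1A1, MMP7, KLK10 and MSMO1 and below it in HTR7 and NR2F1.

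Genes of cholesterol synthesis departed upward together, each by a small amount. Palbociclib alone lowered 14 of the 24 members tested (3.6% of all genes were lowered), Telaglenestat alone lowered 14 and raised 1 (28.5 and 22.6% of all genes), and both drugs lowered 17 (26.9%). The departure was positive in 24 of 24 members (51.9% of all genes), 12 at an unadjusted p under 0.05 (4.72%) and 1 called, with a median of 0.36 (0.35 corrected). The pathway turns acetyl-CoA through mevalonate, farnesyl diphosphate, squalene and lanosterol into cholesterol, and the factor SREBP2 is its main activator when sterols run low.

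MSMO1 (ENSG00000052802.12, chr4:165327623-165343160, plus strand), the sterol oxidase that removes methyl groups from lanosterol derivatives, was the member called. It had 129, 136 and 127 CPM in Control tumors, 89.1, 106, 91.8, 111 and 102 with Palbociclib, 114, 111, 116 and 115 with Telaglenestat, and 148, 140, 126 and 140 with both. In CPM both single drugs left every tumor below Control, whereas the combination tumors overlapped Control and exceeded all tumors on a single drug. Palbociclib lowered it by -0.38 (adjusted p = 0.00247) and Telaglenestat by -0.19 (adjusted p = 0.0473), or by -0.79 in the corrected fit (adjusted p = 6.86e-07). Both drugs against Control gave 0.09 (adjusted p = 0.384), but -0.39 corrected (adjusted p = 0.000869), and against Palbociclib 0.47 (adjusted p = 1.4e-05), but -0.06 corrected (adjusted p = 0.56). The departure was 0.66 ± 0.10 (adjusted p = 0.0097), or 1.58-fold above the product.

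Along the pathway, the departure was 0.48 for the isomerase IDI1 (adjusted p = 0.26), and 0.47 for FDPS, which makes farnesyl diphosphate (adjusted p = 0.142). It was 0.28 for the squalene epoxidase SQLE, 0.57 for the dehydrogenase NSDHL (adjusted p = 0.208) and 0.72 for the isomerase EBP (adjusted p = 0.335). INSIG1, which holds the SREBP complex in the endoplasmic reticulum, had 0.51 (adjusted p = 0.219), and SREBF2, which encodes SREBP2, had 0.06, the smallest of the list. DESeq2 called FDPS beside MSMO1, and edgeR without the filter on low counts also IDI1, FDPS, EBP and INSIG1. INSIG1 lay at 102 to 122 CPM in Control, 58.2 to 66.7 in Palbociclib, 83.6 to 107 in Telaglenestat and 64.6 to 90.7 in combination tumors. Its combination tumors overlapped both single-drug groups and lay below Control.

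Promoters of the 4 members with the smallest p among those with a RefSeq promoter are shown because the list moved as a group. They run from 250 bases before to 50 after the gene start, on build GRCh38.p14, 5′ to 3′ on the gene's strand, with each CCAAT (the CCAAT box, or ATTGG where it lies on the other strand) in capitals. MSMO1 is at chr4:165327419-165327718, FDPS at chr1:155308616-155308915, NSDHL at chrX:152830813-152831112 and INSIG1 at chr7:155297628-155297927, all on the plus strand.
MSMO1: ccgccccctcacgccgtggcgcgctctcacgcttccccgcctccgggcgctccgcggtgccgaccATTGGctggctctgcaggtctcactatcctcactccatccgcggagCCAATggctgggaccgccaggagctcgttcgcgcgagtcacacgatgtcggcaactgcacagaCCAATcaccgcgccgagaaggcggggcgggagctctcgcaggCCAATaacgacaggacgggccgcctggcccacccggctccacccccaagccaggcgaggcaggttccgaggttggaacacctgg
FDPS: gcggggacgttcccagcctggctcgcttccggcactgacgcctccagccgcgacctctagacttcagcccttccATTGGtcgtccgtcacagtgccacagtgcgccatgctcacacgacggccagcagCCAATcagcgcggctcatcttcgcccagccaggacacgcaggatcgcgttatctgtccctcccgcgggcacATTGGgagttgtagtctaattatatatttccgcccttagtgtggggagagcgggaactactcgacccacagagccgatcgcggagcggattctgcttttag
NSDHL: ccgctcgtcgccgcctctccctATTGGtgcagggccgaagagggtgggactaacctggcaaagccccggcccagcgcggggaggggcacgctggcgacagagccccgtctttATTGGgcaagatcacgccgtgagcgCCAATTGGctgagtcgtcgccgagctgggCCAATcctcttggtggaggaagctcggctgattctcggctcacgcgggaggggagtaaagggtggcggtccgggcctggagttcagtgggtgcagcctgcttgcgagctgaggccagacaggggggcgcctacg
INSIG1: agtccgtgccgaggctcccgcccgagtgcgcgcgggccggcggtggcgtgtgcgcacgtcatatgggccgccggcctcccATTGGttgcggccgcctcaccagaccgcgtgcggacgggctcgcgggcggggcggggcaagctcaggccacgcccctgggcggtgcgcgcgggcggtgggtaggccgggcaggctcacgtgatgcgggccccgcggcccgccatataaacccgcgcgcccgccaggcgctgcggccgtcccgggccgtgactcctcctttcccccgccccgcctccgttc
On either strand, CCAAT was found in 15 of 18 members matched by symbol (83.3%) and in 12155 of 35116 RefSeq promoters of that length (34.6%). TCACNCCAC, a core of the sterol response element, was found in 1 of 18 (5.56%), that of SREBF2, and in 396 of 35116 (1.13%). The 35116 promoters include those of genes not tested here, whereas all 18 members were tested, so the sets are unlike. A match is a description of the sequence only.

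The called negative departures were in genes whose uncorrected level was higher with Telaglenestat than in Control, and lower with both drugs than with Telaglenestat alone. The second difference passed the test with and without the correction in HTR7, NR2F1 and PALLD, and the first passed with it in NR2F1 only. HTR7 encodes a serotonin receptor, and NR2F1 the nuclear receptor COUP-TFI, a transcription factor.

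HTR7 (ENSG00000148680.15, chr10:90740823-90857698, minus strand) had 119, 109 and 104 CPM in Control tumors, 79.4, 89.6, 104, 87.9 and 86.7 with Palbociclib, 145, 154, 152 and 165 with Telaglenestat, and 71.3, 89.7, 82.1 and 73.3 with both. The Telaglenestat tumors lay above all others, and the combination tumors overlapped the Palbociclib tumors and lay below Control. Telaglenestat against Control gave 0.48 (adjusted p = 0.000223), but 0.16 corrected (adjusted p = 0.195). The combination against Palbociclib gave -0.18 (adjusted p = 0.0843), but -0.46 corrected (adjusted p = 0.000493). Its departure was -0.66 ± 0.12 (adjusted p = 0.0483), with -0.63 and an adjusted p of 0.103 after correction for GC content and length.

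NR2F1 (ENSG00000175745.11, chr5:93583224-93594615, plus strand) had 124, 125 and 129 CPM in Control tumors, 107, 106, 127, 108 and 104 with Palbociclib, 153, 167, 177 and 189 with Telaglenestat, and 94.2, 106, 94.9 and 97.4 with both. In CPM every Telaglenestat tumor again exceeded every other, and the combination tumors overlapped the lower Palbociclib tumors only. Both drugs against Control gave -0.36 (adjusted p = 0.00121), but the opposite direction in the corrected fit, 0.33 (adjusted p = 0.0133). Against Palbociclib they gave -0.17 (adjusted p = 0.0562), but 0.53 corrected (adjusted p = 0.000165). Its departure was -0.62 ± 0.11 (adjusted p = 0.0333), and -0.74 corrected (adjusted p = 0.032). Without 1 tumor, HTR7 missed the threshold in 13 of 16 fits and NR2F1 in 10 of 16 (largest without Control 2, at 0.246 and 0.172).

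PALLD, ISY1-RAB43, SPAG1 and MALT1 fall outside the rule for naming genes and were chosen after their values were seen, because each was called in a fit with or without the correction. PALLD, which encodes the actin-binding protein palladin and shares its strand with other annotated genes, lay at 397 to 459 CPM in Control, 476 to 595 in Palbociclib, 597 to 846 in Telaglenestat and 447 to 552 in combination tumors. The combination tumors overlapped Control and Palbociclib and lay below every Telaglenestat tumor, with a departure of -0.80 ± 0.15 (adjusted p = 0.0483) and -0.69 corrected (adjusted p = 0.129). Telaglenestat against Control gave 0.71 (adjusted p = 2.92e-05), but 0.25 corrected (adjusted p = 0.0951). The combination against Palbociclib gave -0.09 (adjusted p = 0.468), but -0.43 corrected (adjusted p = 0.00281).

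ISY1-RAB43 is annotated as a readthrough of the neighbouring genes ISY1 and RAB43, so its counts are uncertain. It had 0, 1, 0 and 0 counts in the 4 Telaglenestat tumors, against 16.4 to 21.8 CPM in Control, 11.8 to 26.7 in Palbociclib and 3.58 to 5.8 in combination tumors. The 4 groups separated except that Control lay within the Palbociclib range, and the departure was called (adjusted p = 0.000127). No fold is given, since 1 group was almost without counts.

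SPAG1, a co-chaperone needed for assembly of cilia, and MALT1, a protease of immune receptor signalling, were called only after correction, with departures of 0.86 (adjusted p = 0.0464) and 0.61 (adjusted p = 0.0488). Uncorrected, these were 0.77 (adjusted p = 0.11) and 0.42 (adjusted p = 0.321). SPAG1 lay at 16.1 to 17.5 CPM in Control, 14 to 18.5 in Palbociclib, 14.8 to 15.6 in Telaglenestat and 21.6 to 28 in combination tumors. MALT1 lay at 54.2 to 69.2, 58.6 to 77.9, 61.3 to 70.4 and 85.2 to 98.1 CPM in the same order. In both genes the combination tumors exceeded all others in uncorrected CPM. In the corrected fit, both drugs against Control gave 0.15 for SPAG1 (adjusted p = 0.359) and 0.17 for MALT1 (adjusted p = 0.131), and against Palbociclib 0.19 (adjusted p = 0.167) and 0.06 (adjusted p = 0.565). Telaglenestat against Control gave -0.67 and -0.54 there (adjusted p = 0.000343 and 9.03e-05). In all, 8 genes were called with the same sign in both fits (0.0539%). The corrected fit called 9 positive (0.0606%) and 1 negative (0.00673%).

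Palbociclib's targets and their partners were not called, and GLS2, which encodes a glutaminase, did not pass the filter on low counts.

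CCND1, which encodes the CDK4 and CDK6 partner cyclin D1, had 511, 526 and 518 CPM in Control tumors, 1050, 997, 914, 1010 and 1050 with Palbociclib, 606, 469, 504 and 520 with Telaglenestat, and 1120, 1210, 1080 and 1060 with both. Palbociclib and combination tumors lay above all others, and the combination tumors had the highest CPM, without a called difference from Palbociclib (0.15, adjusted p = 0.0757). It rose by 0.95 with Palbociclib (adjusted p = 1.64e-06), and its departure was 0.14 ± 0.11 (adjusted p = 0.734), with an interval from -0.09 to 0.36.

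CDK4 had a departure of 0.15 ± 0.13 (adjusted p = 0.746), RB1, the retinoblastoma gene, of -0.15 ± 0.13 (adjusted p = 0.78), and the transcription factor MYC of 0.27 ± 0.15 (adjusted p = 0.577). CDK6 had 13.6, 39.6 and 18.6 CPM in Control tumors, 35.5 to 40.9 with Palbociclib, 21 to 27 with Telaglenestat and 42.7 to 53.9 with both. The tumor Control 2 was the only Control tumor in the range of the Palbociclib group. The departure of CDK6 was 0.39 ± 0.29 (adjusted p = 0.719), and -0.20 without Control 2 (adjusted p = 0.871).

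Cell cycle genes lay near additivity although Palbociclib lowered most of them. It lowered 20 of 30 E2F and G1/S genes and 29 of 30 G2/M and mitosis genes, against 3.6% of all genes, and both drugs together lowered 25 and 27, against 26.9%. Their median departures were -0.02 and -0.09, with 14 and 10 of 30 above 0 and none called. At an unadjusted p under 0.05, 1 E2F gene was negative and 1 mitosis gene positive. The CDK4/6 axis had a median of 0.03 over 13 genes.

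Glutamine and glutamate handling had a median of 0.12, with 15 of 19 genes positive, 3 positive and 1 negative at an unadjusted p under 0.05, and none called by edgeR with the filter on low counts or by DESeq2. Without the filter edgeR called SLC1A3. SLC1A5, the glutamine importer ASCT2, had 0.36 (adjusted p = 0.443), the glutamate importer SLC1A3 0.65 (adjusted p = 0.346) and the glutamine importer SLC38A1 -0.22 (adjusted p = 0.508). TCA cycle genes had a median of -0.01 over 28 genes, nucleotide synthesis -0.03 over 21, glycolysis 0.13 over 24 and the pentose phosphate pathway 0.16 over 11 (0.05 corrected), with none called by edgeR with the filter. The glucose transporter SLC2A1 had the smallest p of the glycolysis list, with a departure of 0.48 ± 0.11 (adjusted p = 0.118). DESeq2 called it, and edgeR without the filter called it and the glucose transporter SLC2A3. SLC2A1 lay at 581 to 653 CPM in Control, 705 to 912 in Palbociclib, 328 to 377 in Telaglenestat and 641 to 696 in combination tumors. The combination tumors thus stood in the upper Control range and just above it, and the Telaglenestat tumors below every other tumor.

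The interferon response leaned downward, with a median of -0.07, 12 of 36 genes above 0, 1 positive (2.78%) and 5 negative (13.9%) at an unadjusted p under 0.05, and none called by edgeR with the filter. DESeq2 called 1 negative gene, and edgeR without the filter 1 (IFI44L). IFIT1, an antiviral RNA-binding protein, had -0.34 (adjusted p = 0.514) and IFIT2 -0.40 (adjusted p = 0.508).

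Ribosomal and respiratory genes showed small positive departures in nearly every member. Of 78 cytosolic ribosomal protein genes, 76 were above 0 (51.9% of all genes were), 14 had an unadjusted p under 0.05 and none was called, with a median of 0.18. Of 65 nuclear genes of the respiratory chain, 57 were above 0 and 8 had an unadjusted p under 0.05, with a median of 0.15. The 13 mitochondrially encoded genes had a median of 0.32, with 12 above 0 and none at an unadjusted p under 0.05, and 0.50 without the tumor Palbociclib 2. Mitochondrially encoded genes took 6.78 to 7.22% of counts in Control, 8.28 to 13.6% in Palbociclib, 6.23 to 9.07% in Telaglenestat and 13.2 to 14.8% in combination tumors. All 13 rose with both drugs against Control (17.6% of all genes rose), against Palbociclib (20.1%) and against Telaglenestat (8.93%).

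The remaining lists spanned medians from 0.02 for p53 targets to 0.31 for epithelial identity genes, with none called by edgeR with the main filter. With at least 10 counts required in every tumor, edgeR called CLDN7 of the epithelial list and ATP6AP1 of the lysosome list. DESeq2 called these, the hypoxia genes P4HA2 and SLC2A1, and ABCC2, an NRF2 target with a negative departure. Without a filter edgeR called CLDN7, KRT18, KRT19, VIL1, ATP6AP1 and ABCC2, the p53 target TIGAR, the MAPK output gene AREG, and 3 hypoxia genes. Of these, VIL1 was without counts in the Telaglenestat tumors. Epithelial identity, the check of the labelled carcinoma cells, had summed levels of 3670 to 4140 CPM in Control, 3590 to 5060 in Palbociclib, 2220 to 2430 in Telaglenestat and 2910 to 3100 in combination tumors. CLDN7, which encodes a claudin of tight junctions, had a departure of 0.53 ± 0.12 (adjusted p = 0.108), and the keratin KRT18 had 0.47 ± 0.14 (adjusted p = 0.282). Medians were 0.21 for output and feedback genes of the MAPK pathway, 0.20 for WNT targets, 0.12 for fatty acid synthesis, 0.11 for hypoxia genes, and 0.10 for both the ATF4 stress response and lysosome and autophagy genes.

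**Figure D3:**
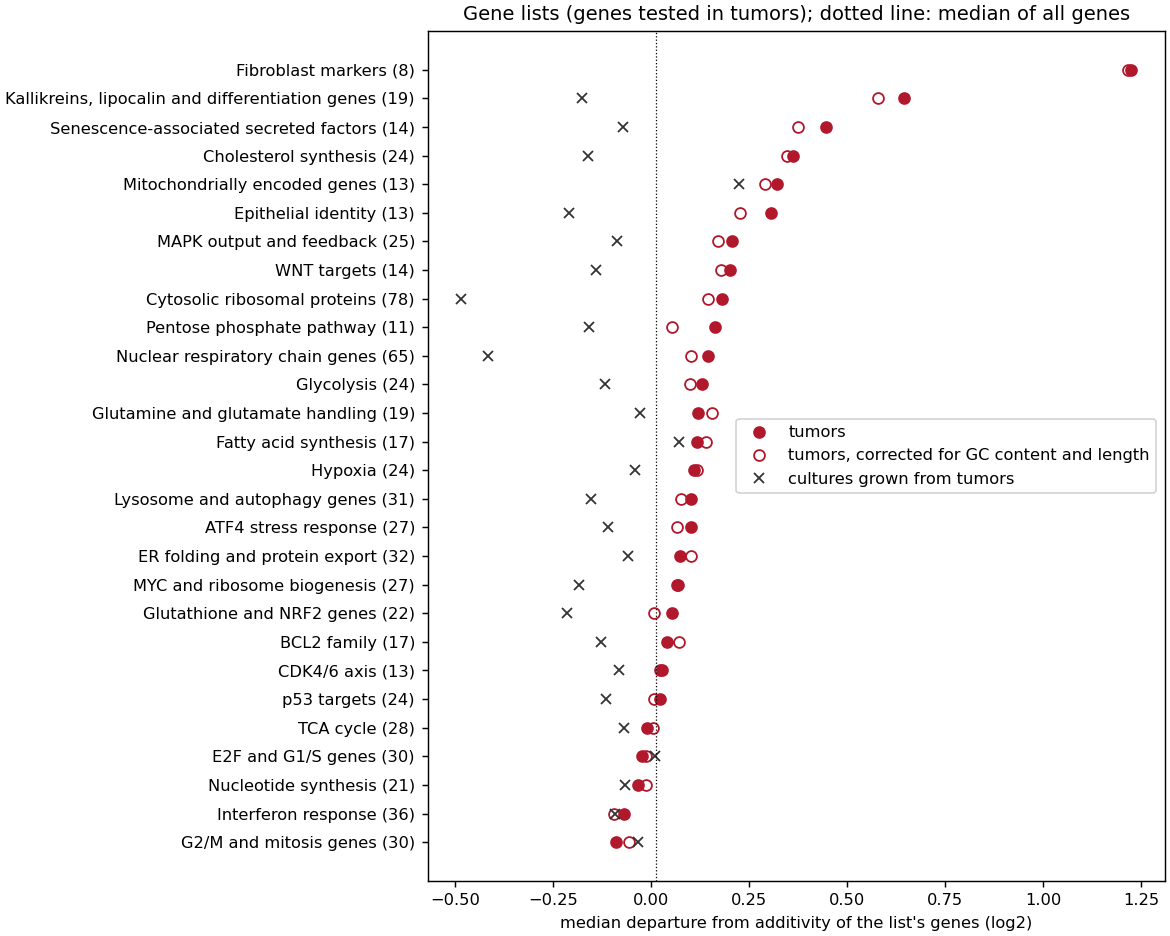
Median departure from additivity (log2, horizontal axis) of each gene list with at least 8 genes tested in tumors, in tumors (filled), in tumors after correction for GC content and length (open) and in the cultures (crosses). Fibroblast markers, at 1.22, lie highest and cholesterol synthesis at 0.36; the fibroblast list has no cross because most of its genes had few or no counts in cultures.

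The cultures ask whether a departure remained in cells grown out of the tumors without the drugs. In a fit of all 28 libraries, which share one estimate of the spread, edgeR called 0 of 15466 genes for a departure in cultures (0%), with 688 (4.45%) at an unadjusted p under 0.05. On the 12 culture libraries alone edgeR also called 0 of 13985, with 287 at an unadjusted p under 0.05, and DESeq2 called 3. The departure in tumors minus that in cultures was called in 0 genes (0%) by edgeR, with 1193 (7.71%) at an unadjusted p under 0.05, and in 33 by DESeq2, of which 26 were cytosolic ribosomal protein genes. That count was 56 by edgeR without the culture Telaglenestat 1. In this wider fit the tumor departures of SPARC, COL1A2, COL1A1, MMP7, KLK10, MSMO1, HTR7 and NR2F1 kept their sizes and missed the threshold.

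MSMO1 had a departure of -0.14 in cultures (interval from -0.56 to 0.29), and its tumor departure minus this was 0.80 ± 0.28 (adjusted p = 0.588). KLK10 had 0.28 in cultures (interval from -0.43 to 0.99) and a difference of 0.83 ± 0.45 (adjusted p = 0.699). MMP7 had -2.38 in cultures on 2 to 22 counts and a difference of 3.54 ± 0.76 (adjusted p = 0.305).

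COL1A2 had 0 to 2 counts per culture, so it gives no departure there. The cholesterol synthesis list had a median of -0.16 in cultures, with 5 of 24 above 0, and the cytosolic ribosomal protein list -0.48, with 0 of 78 above 0. Most lists had a negative median in cultures, among them nuclear respiratory chain genes (-0.42, 1 of 65 above 0) and pentose phosphate (-0.16, 2 of 11). The exceptions were E2F and G1/S genes (0.009), fatty acid synthesis (0.07) and mitochondrially encoded genes (0.22). A negative median was thus not particular to the cholesterol list. ISY1-RAB43 had a difference with an adjusted p of 0.0963, and 0.014 after correction for GC content and length.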

How the data were processed

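RNA-seq was performed on poly(A) RNA of 28 samples; the 16 tumors were analysed here, with the 12 cultures where stated. Per the labels and the study's methods, the authors made strand-marked libraries, converted reads with CASAVA 1.8, aligned them to hg38 with STAR and deposited raw counts per gene, not normalized; whether counting used strand, the annotation release and any removal of mouse reads are not given in the sources used here.

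Groups and replicate numbers came from the labels. Of 58278 genes, 25450 had no count in the tumors and 14848 passed filterByExpr (minimum count 10). IDs were matched to GENCODE 29 on GRCh38 (57895 matched; unmatched IDs held 0.0468% of tumor counts). Groups were fitted as 4 means with edgeR 4.0.16 (TMM, glmQLFit, glmQLFTest) in R 4.3.3, with Benjamini-Hochberg adjustment at 0.05. Standard errors came from the log2 change and F, and 95% intervals from the t distribution. The corrected fit used, as offsets, each library's robust trend on GC content and log2 length (splines of 5 df). DESeq2 1.42.0, its size factors, other filters, a replicate block, 28 libraries together and leaving out each library were alternatives; the fit was tested on simulated data.

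Members and gene lists (31) were chosen with earlier results of these data known. Genes named are up to 15 per direction with an adjusted p under 0.05 in the fits with and without correction, protein-coding, with mean log2 CPM of at least 1 and no overlap on their strand (the correction is waived below 5 in a direction); up to 4 per list passing both fits; and CDK4, CDK6, RB1, CCND1, GLS2, MYC and LCN2. Some genes of the rule and lists are not reported here. The other list members named were those with small p or known roles, chosen after their values were seen.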

Additional observations from a re-analysis of the deposited data

Results flagged for a closer look

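A gap test (Dixon's, at its 95% critical value) was run within the groups of 4 or 5 tumors on 66 sets of values, 19 genes and 3 library measures in 3 groups; the 3 Control tumors are too few for it. It set apart 7 values, where chance gives about 1 in 20.

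In tumor Palbociclib 3, SPARC was at 60.2 CPM against 80.3 to 83.6 in the other 4 Palbociclib tumors, and NR2F1 was at 127 CPM against 104 to 108. In tumor Palbociclib 2, COL1A1 was at 68.2 CPM against 120 to 146. In tumor Telaglenestat 2, ISY1-RAB43 was at 0.139 CPM, which is 1 count, where the other 3 had 0. The tumor Palbociclib 2 had 13.6% of counts on mitochondrially encoded genes against 8.28 to 9.58% in the others, and a GC slope of 0.0969 against 0.313 to 0.359. The tumor Telaglenestat 2 had 6.23% of counts on mitochondrially encoded genes against 8.91 to 9.07%.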

How the results depend on the processing

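With fewer than 6 tumors a group, small departures lie below the resolution of these data, and the number of calls depended on the settings. From 7 positive and 3 negative, the calls became 30 and 63 with DESeq2, 96 and 139 without a filter on low counts, 14 and 15 with at least 10 counts in every tumor, 1 and 0 in the fit of all 28 libraries, and 9 and 1 after correction for GC content and length. All 10 genes were still called without the filter, 9 with the stricter one, 8 with DESeq2 and 8 after correction. Leaving out 1 tumor gave 2 to 8 positive calls (2 without Control 2) and 0 to 11 negative calls (11 without Palbociclib 5). DESeq2's size factors gave the same 10 genes, and protein-coding genes alone 7 and 4. The cause of these shifts was not tested.

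Replicate numbers did not pair the tumors. The 21 pairs of tumors with the same number had correlations of their deviations from -0.128 to 0.0896, with a median of -0.00409. The median was 0.000184 over 74 pairs with different numbers. Of 16 tumors, 6 correlated best with their own number, and the count that chance gives was not worked out. The replicate block gave 5 positive and 1 negative calls, and with the correction 6 and 2.

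For the 8 genes named by rule, every departure kept its sign under every setting run. All 8 missed the threshold in the fit of all 28 libraries. DESeq2 gave no adjusted p for COL1A2 and ISY1-RAB43. CDK6 ranged from -0.197 to 0.672 and LCN2 from -0.352 to 0.427 without 1 tumor, so both changed sign, and LCN2 was 3.91 CPM above the sum on the linear CPM scale.

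Of 724 list medians under alternatives, 17 moved by more than the spread between tumors. The pentose phosphate list became 0.0543 with the correction and 0.0377 with the block as well, lysosome and autophagy genes 0.03 with both, the BCL2 family 0.136 with the replicate block, and the kallikrein list 0.394 with at least 10 counts in every tumor. Without 1 tumor, the ranges were -0.0558 to 0.133 for the CDK4/6 axis, 0.0697 to 0.202 for pentose phosphate, 0.271 to 0.516 for secreted factors, 0.0301 to 0.13 for lysosome and autophagy, 0.016 to 0.132 for the BCL2 family, 0.392 to 0.777 for the kallikrein list and 0.981 to 1.36 for fibroblast markers.

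The difference between tumors and cultures, with 0 calls by edgeR (1193 genes at an unadjusted p under 0.05), had 1 with the correction, 33 with DESeq2, a test added after seeing the data, and 0 to 56 without 1 library (56 without the culture Telaglenestat 1).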
